A study of Mus musculus with 8 samples.

Results

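CXCL9, CXCL10 and CXCL11 are the interferon-induced ligands of the chemokine receptor CXCR3, and their mRNAs were followed here in MC38 cells, a murine colon adenocarcinoma line. The members were chosen by gene name, as the rows Cxcl9, Cxcl10 and Cxcl11, and all 3 were present in both deposited tables, among 20432 genes that the tables share. The cells were control (wild type) or DENR KO, and each genotype was either left untreated or given 20 ng/ml IFNγ for 4 h, with 2 samples in each of the 4 groups. DENR is a factor for re-initiation of translation, and the comparison asked how its loss alters the transcripts of IFNγ-treated cells. The knockout was made with CRISPR/Cas9, and whether the 2 DENR KO samples are separate clones, guides or cultures of 1 line was not given in the sources used here, so that p-values measure only the spread between these samples.

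CXCR3 is carried mainly by activated T cells and natural killer cells, which follow its ligands into inflamed tissue and tumors. IFNγ binds IFNGR1 and IFNGR2, the kinases JAK1 and JAK2 carry the signal on, and it reaches promoters at gamma-activated sequences (GAS) and, through the factor IRF1, at interferon-stimulated response elements (ISRE). Cxcl10 is also a well known target of NF-κB. CXCL11 protein is not made in C57BL/6 mice, the strain of origin of MC38, because the allele carries a frameshift, and the deposited tables class Cxcl11 as a polymorphic pseudogene. Its RNA is therefore a readout of the locus and not of a chemokine.

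The 3 genes lie side by side on the minus strand of chromosome 5 of GRCm38, within 44.1 kb. Cxcl9 (ENSMUSG00000029417) spans 92321347 to 92328079, Cxcl10 (ENSMUSG00000034855) 92346638 to 92348889 and Cxcl11 (ENSMUSG00000060183) 92359544 to 92365485. The gaps between them are 18558 and 10654 bases. Art3, on the other strand, spans both Cxcl10 and Cxcl11 in GENCODE, and 133 of the 2252 exonic bases of Cxcl10 are shared with an Art3 exon. For Cxcl11, 1582 of 3794 exonic bases are shared with the pseudogene Gm2673. Art3 itself had 5.58 ± 0.649 normalized counts (SD, n = 2) in control and 3.44 ± 2.10 (SD, n = 2) in knockout cells given IFNγ, far below Cxcl10. How reads in shared bases were divided was not given in the sources used here.

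RefSeq promoters (GRCm38.p6, 250 bases before to 50 after the start site) were at hand for 2 of the 3 members, Cxcl9 and Cxcl10. The stretches below are shown because they hold the letters known to be bound by the factors of this pathway, and capitals mark the match. The ISRE core, GAAA and GAAA set 2 bases apart, occurred once in the Cxcl10 promoter, beginning 213 bases before the start site (chr5:92349083-92349112, minus strand), and on either strand in 3.44% of the 32851 promoters.
Cxcl10 ISRE core: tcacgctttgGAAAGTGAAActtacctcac
The NF-κB consensus, of 10 letters, was found in the Cxcl10 promoter from 159 bases (chr5:92349029-92349058) and again from 104 and 103 bases before the start, where matches overlap (chr5:92348973-92349002 for the latter). It occurred in 8.46% of all promoters.
Cxcl10 NF-κB, distal: agaggggagaGGGAAATTCCaagttcatgg
Cxcl10 NF-κB, proximal: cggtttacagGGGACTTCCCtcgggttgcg
The Cxcl9 promoter held neither of these, but it held a shorter form, GGGANTTCC, from 42 bases before the start (chr5:92328103-92328131). That form was also inside the proximal Cxcl10 match and was in 1.68% of all promoters. It was added after the promoters had been read.
Cxcl9 NF-κB, short form: ggaaggaaaaGGGATTTCCtaaataaata
The GAS core TTCNNNGAA, in 8.30% of all promoters, was not among the letters of either window. Such matches describe the letters only.

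The deposited values are normalized counts, that is, the reads of a gene over a size factor that each sample has, and whole reads could be recovered from them. Reads on genes ran from 17369020 to 18403790 per sample. Denr mRNA, the targeted transcript, was at 1437.6 and 1401.5 normalized counts in control and 946 and 957 in DENR KO samples with IFNγ, and at 1448 and 1297 against 943 and 916 in untreated samples. It was lower in DENR KO cells in both tables, by −0.58 (adjusted p = 8.2e-06) and −0.56 (adjusted p = 1.1e-04) on the log2 scale in limma. Of 8 epithelial markers, 5 were listed and their summed level was between 12.7 and 24.6 normalized counts in a sample, so that these 5 were near 0 in a line labelled as colon adenocarcinoma. Epcam, Krt20 and Cdx2 were not analysed here. Of 11 leukocyte markers, 7 were listed, and their sum of 54.4 to 89.4 was mostly Cd68. Ptprc, the pan-leukocyte marker, had group means of at most 1.53.

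Without IFNγ, Cxcl10 was the only member of the 3 with more than a few reads. It had 223 and 220 normalized counts in untreated control samples and 237 and 197 in untreated DENR KO samples. The DENR KO samples lay on either side of the controls. The means of 221.9 ± 2.07 and 217 ± 28.9 (SD, n = 2 each) gave a log2 fold change of −0.04 (standard error 0.14, 95% interval −0.32 to 0.25, adjusted p = 0.96 from limma). A gene was called when its adjusted p was under 0.05 and its log2 fold change lay beyond 0.5 in size. Of the 13998 genes tested without IFNγ, that was so for 0.214% in either direction, with 0.0857% lower and 0.129% higher, and Cxcl10 was not among them. In bulk RNA, fewer expressing cells and less RNA per cell cannot be told apart, here and in what follows. Cxcl9 had 4 and 0 reads in untreated control samples and 2 and 5 in untreated DENR KO samples. Cxcl11 had 3 and 0 reads in the controls and 6 and 2 in the knockouts. Both were under the mean of 10 normalized counts required for testing, and a count of 0 still allows up to 3 reads. Summed over the 2 samples, the exact 95% Poisson interval of Cxcl9 ran from 0.538 to 5.05 normalized counts in control and from 1.34 to 6.88 in DENR KO cells, and that of Cxcl11 from 0.305 to 4.32 and from 1.65 to 7.52. These intervals overlap and cover counting error only, so a difference was not detectable at this depth.

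With IFNγ, Cxcl10 had 39679 and 42271 normalized counts in control samples. In DENR KO samples it had 17037 and 18061, and no knockout value came near a control value. Cxcl9, which like Cxcl10 draws CXCR3-bearing T cells, had 6513 and 7279 in control and 2740 and 2886 in DENR KO samples. Cxcl11 had 394 and 496 in control and 167 and 186 in DENR KO samples. In all 3 genes the groups were fully apart, and in all 3 the knockout level was between 39.6% (Cxcl11) and 42.8% (Cxcl10) of control, with Cxcl9 at 40.8%. The log2 fold change was −1.22 for Cxcl10 (standard error 0.048, 95% interval −1.32 to −1.12, adjusted p = 9.2e-14 from limma). For Cxcl9 it was −1.29 (standard error 0.062, −1.42 to −1.16, adjusted p = 2.7e-12) and for Cxcl11 −1.32 (standard error 0.13, −1.59 to −1.06, adjusted p = 2.1e-07). Thus 3 of 3 members were called lower, while 1.03% of the 13928 genes tested were called lower, 0.517% higher and 1.54% either way. The members were chosen with earlier results of these data known, so this contrast is not an independent test. The intervals of the 3 members overlap each other. In a fit of all 8 samples, in which the few reads of untreated cells enter the variance, Cxcl9 (adjusted p = 0.67) and Cxcl11 (0.47) were not called, and Cxcl10 was.

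**Figure D1:**
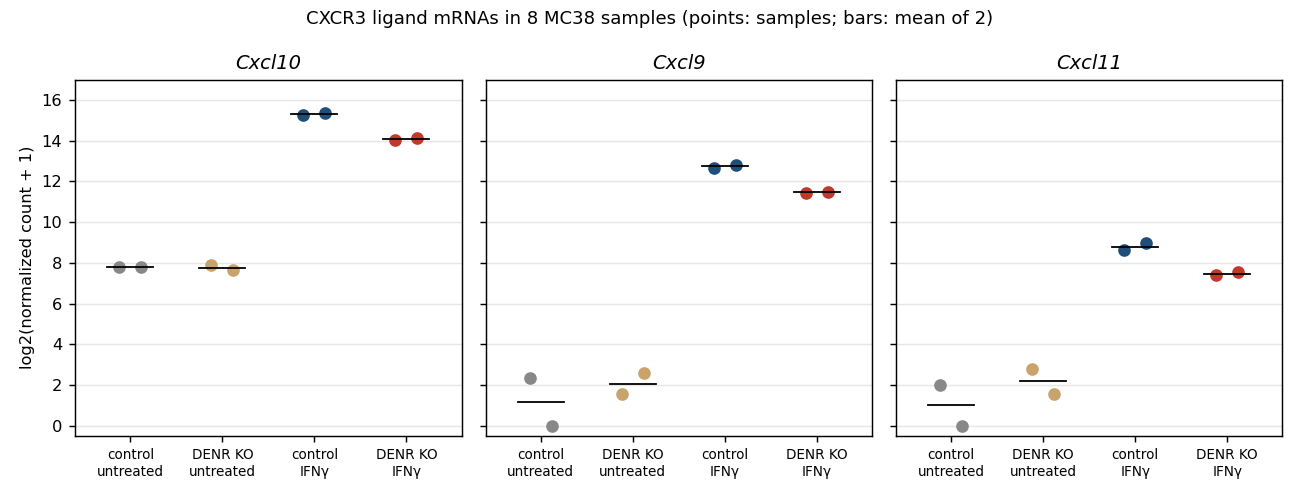
The log2 of the normalized count + 1 is plotted for Cxcl10, Cxcl9 and Cxcl11 in each of the 8 samples, with points for samples and bars for the mean of 2. In each panel both DENR KO samples with IFNγ sit below both control samples with IFNγ, and the untreated genotypes overlap.

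Per length, the order of the members was the same in both genotypes with IFNγ. To set levels across the tables, all reads were put on 1 scale with joint size factors, and these levels were not tested because the tables were normalized separately. Divided by the length of the RefSeq transcript (1094, 2889 and 1581 bases), Cxcl10 had 38501 normalized counts per kb in IFNγ-treated control cells, Cxcl9 2454 and Cxcl11 289.6. In DENR KO cells the levels per kb were 16392, 995 and 114. Dividing by the length given in the tables, which joins the exons of all transcripts, the control levels were 18703, 2350 and 120.7, in the same order. In untreated control cells Cxcl10 had 197.5 per kb, and Cxcl9 and Cxcl11 had 0.677 and 0.928, which their few reads do not tell apart.

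Folds and ratios of the members were taken from the reads of both samples of a group, summed and divided by their joint size factors. IFNγ raised Cxcl10 in control cells by 195-fold (exact 95% counting interval 178 to 215) and in DENR KO cells by 85.0-fold (77.4 to 93.6). Such intervals leave out the spread between samples. Over single-sample pairs, the fold of Cxcl10 ran from 188 to 202 in control and from 75.5 to 96.5 in DENR KO cells. The gain of Cxcl10 in control cells, 41904 normalized counts, was number 1 of the 20432 genes in both tables. Cxcl9 rose from 4 reads to 13586 reads in control cells, a ratio of 3595 (1404 to 13194), and from 7 to 5739 in DENR KO cells, a ratio of 861 (417 to 2142). By fold on the scale of value + 1 it was number 2 of all genes, and by gain number 22. Cxcl11 rose from 3 to 878 reads in control cells, a ratio of 310 (106 to 1505), and from 8 to 360 in DENR KO cells, a ratio of 47.2 (23.7 to 110). The ratios of Cxcl9 and Cxcl11 rest on single-digit untreated reads, and their intervals, which cover counting error only, are wide for that reason.

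The share of the IFNγ gain that was kept in DENR KO cells is the increase in DENR KO cells as a percentage of that in control cells. It was 42.3% for Cxcl10, 40.5% for Cxcl9 and 38.7% for Cxcl11. Over the 16 ways to take 1 sample from each group, the share ran from 39.7 to 45.01% for Cxcl10, from 37.4 to 44.0% for Cxcl9 and from 32.4 to 46.6% for Cxcl11. The members therefore cannot be ordered by this measure. For comparison, 137 genes had at least 100 normalized counts in IFNγ-treated control cells and at least 4 times their untreated level. These genes were chosen on the same control samples that enter the share. Their median share kept was 61.0%, with quartiles of 52.4 and 68.7%, and all 137 were below 100%. Counted from the lowest share, Cxcl11 was number 7, Cxcl9 number 8 and Cxcl10 number 11 of the 137.

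**Figure D2:**
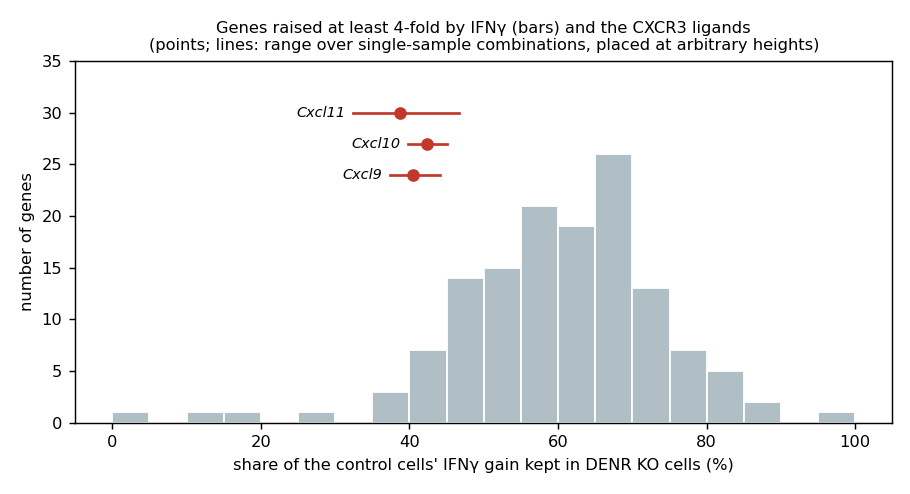
The histogram shows the share of the control cells' IFNγ gain kept in DENR KO cells (%) for 137 genes raised at least 4-fold, in bins of equal width, and red points and lines show the value and range of the 3 ligands at arbitrary heights. The ligands, at 38.7 to 42.3%, lie in the lower tail of a distribution with a median of 61.0%.

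Ratios between the 3 transcripts within a sample do not depend on the scaling of that sample. Reads on Cxcl10 were 6.09 and 5.81 times those on Cxcl9 in the control samples with IFNγ, and 6.22 and 6.26 times in the DENR KO samples. These values did not overlap between genotypes and differed by 0.07 on the log2 scale, but with 2 samples against 2 the smallest p of an exact two-sided permutation test is 0.333, which is what it gave. The ratio of Cxcl10 to Cxcl11 was 100.6 and 85.2 in control and 101.8 and 97.3 in DENR KO samples (difference 0.11, exact permutation p = 0.667). The ratio of Cxcl9 to Cxcl11 was 16.5 and 14.7 against 16.4 and 15.6 (difference 0.04, exact permutation p = 1). Adjusted over these 3 ratios, each p is 1, and no p of this design could have passed 0.05. Cxcl10 made up between 84.5 and 85.5% of the reads on the 3 genes in the 4 IFNγ-treated samples, and between 96.6 and 100% in the untreated samples. Together the 3 genes took 2618 and 2803 RPM (reads scaled to a common total per sample) in control samples with IFNγ, 1127 and 1197 RPM in DENR KO samples with IFNγ, and 11.2 to 13.6 RPM in untreated samples.

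An interaction term, fitted to the 8 samples together, tested whether the DENR KO effect itself differed with treatment. For Cxcl10 the effect was lower with IFNγ than without it by −1.18 on the log2 scale (standard error 0.10, 95% interval −1.40 to −0.97, adjusted p = 1.8e-06 from limma), and 0.429% of 13998 genes were called lower, 0.0214% higher and 0.45% either way in this test. Cxcl10 was the 1 member of 3 called. For Cxcl9 the estimate was −2.19 (standard error 1.24, adjusted p = 0.99) and for Cxcl11 −2.50 (standard error 0.93, adjusted p = 0.75), with 0 to 6 reads in each untreated sample. With a pseudocount of 8 in place of 1, which damps such reads, Cxcl9 (−1.50, adjusted p = 0.0041) and Cxcl11 (−1.62, adjusted p = 0.016) were called as well.

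Beyond the members, 24 other chemokine genes were listed, and 13 of them were tested with IFNγ. Of these, 4 were called lower, beside 1.03% of the 13928 genes tested. Among the 13, 12 had a negative log2 fold change, and their median was −0.45, beside a median of −3.6e-04 over all genes. The 4 were Ccl2 (−0.60) and Ccl7 (−0.61), which attract monocytes, and the neutrophil chemokines Cxcl1 (−0.78) and Cxcl5 (−1.21), which carry the glutamate-leucine-arginine motif that CXCR3 ligands lack. Cxcl5, the 1 of the 4 beyond a log2 change of 1, was at 68.0 ± 7.77 normalized counts in control and at 28.9 ± 3.31 in knockout cells (SD, n = 2 each; standard error 0.26, adjusted p = 0.0070 from limma). Untreated, its means were 4.56 in control and 1.47 in knockout samples, near the floor. Its log2 rise with IFNγ on the value + 1 scale was 3.70 in control and 3.65 in knockout cells. The interaction of Cxcl5 was not called (−0.01, standard error 0.66), while those of Ccl2, Ccl7 and Cxcl1 were called lower. Cx3cl1, a membrane-bound chemokine, passed an adjusted p-value of 0.05 in opposite directions, with −0.33 with IFNγ and 0.40 without it.

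Among the partners of the ligands, Ackr3, a scavenging receptor that binds CXCL11, had 4341 ± 131 normalized counts in control samples and 4702 ± 42.8 in knockout samples with IFNγ (SD, n = 2 each; log2 fold change 0.12, adjusted p = 0.38 from limma). Pf4, a platelet chemokine that can bind CXCR3, had group means of at most 0.984. Cxcr3, Dpp4, a peptidase that trims the ligands, and Ackr1 were not analysed here. Of 8 cytokines that could induce the ligands, Tnf and Il1a were listed, with group means of at most 3.54, and the others, Ifng and Ifnb1 among them, were not analysed here.

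From the IFNγ receptor to the transcription factors, 10 genes were tested with IFNγ. Of these, 7 passed an adjusted p-value of 0.05 in the lower direction, beside 2.25% of all 13928 genes. A change beyond 0.5 as well was found for 4, beside 1.03% of all genes. The median of the 10 was −0.31. The 4 were Irf8 (−0.75), Stat3 (−0.54), Stat2 (−0.52) and Irf1 (−0.52). Those that passed within 0.5 were Irf2 (−0.32), Jak2 (−0.30, adjusted p = 0.0064 from limma) and Irf9 (−0.28). Irf1, which acts at the ISRE, was at 17099 ± 154 normalized counts in control samples and 11954 ± 77.6 in knockout samples (SD, n = 2 each; limma, adjusted p = 1.0e-07). Its share kept was 66.6%, above the 38.7 to 42.3% of the ligands, a difference that was not tested. Of 8 inhibitors of the path, Socs1 (−0.75) and Socs3 (−0.62), feedback inhibitors of JAK kinases and receptors, were called lower, beside 1.03% of all genes. Of 9 NF-κB subunits and inhibitors, 4 passed an adjusted p-value of 0.05 in the lower direction, against the same 2.25%, and they lay within 0.5. All 9 values were negative and their median was −0.24. The 4 were Tnfaip3 (−0.34), Nfkbib (−0.30), Nfkbie (−0.25) and Nfkbia (−0.24), which all restrain NF-κB. Of the subunits, Rel was at −0.34 (adjusted p = 0.096 from limma), Nfkb2 at −0.15, Nfkb1 at −0.14, Rela at −0.07 and Relb at −0.05, with adjusted p-values above 0.05.

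**Figure D3:**
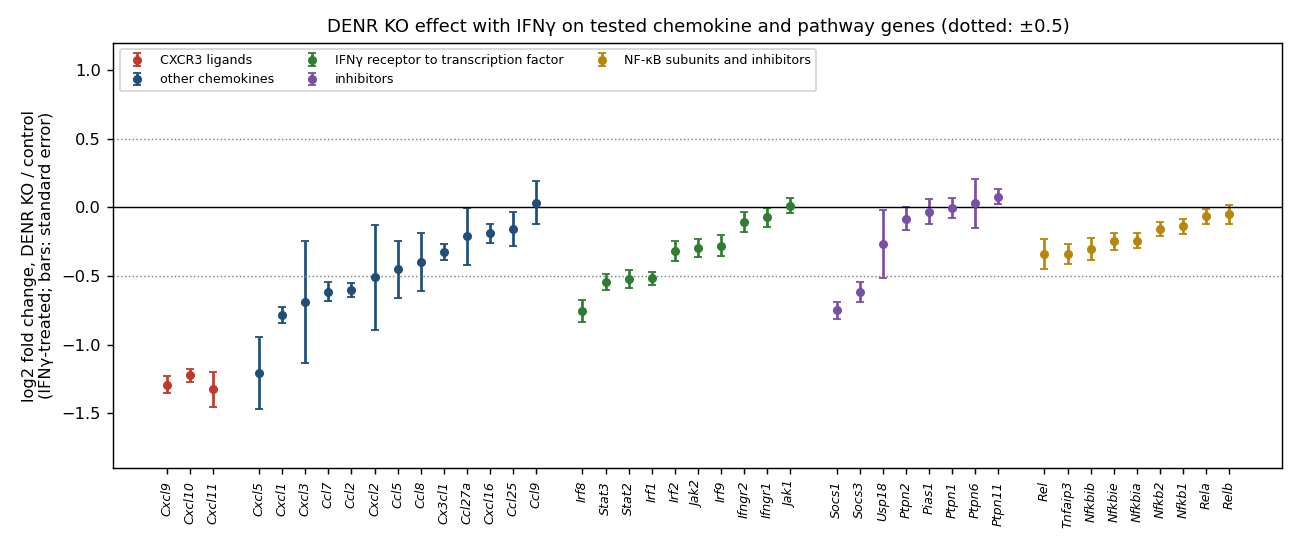
The change from control to DENR KO in IFNγ-treated cells, as log2, is plotted with its standard error for the 3 CXCR3 ligands, the 13 other tested chemokines and the tested genes of 3 pathway lists, and dotted lines mark ±0.5. The ligands lie between −1.32 and −1.22, below every gene of the pathway lists, of which Irf8 at −0.75 and Socs1 at −0.75 are the lowest. Among the other chemokines, Cxcl5 at −1.21 (standard error 0.26) lies beside the ligands in this contrast.

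The genes around the cluster did not share the decrease of the ligands. Within 300 kb on either side, 22 other genes and loci were listed and 11 of them were tested with IFNγ. Their log2 fold changes ran from −0.10 to 0.55. Sdad1, the nearest tested gene on the Cxcl9 side, was at 2315 ± 16.5 normalized counts in control samples and 2163 ± 25.9 in knockout samples (SD, n = 2 each; −0.10, adjusted p = 0.55 from limma). Nup54, the nearest on the Cxcl11 side, was at 1591 ± 77.2 and 1509 ± 7.20 (−0.08, adjusted p = 0.73). An unnamed locus on the Cxcl9 side was the 1 neighbor called, beside 1.54% of all genes called either way. It was higher in the knockout, at 156 ± 16.7 normalized counts in control and 229 ± 15.1 in knockout samples (0.55, adjusted p = 0.024 from limma). IFNγ changed the level of Sdad1 in control cells by 1.21-fold and that of Nup54 by 1.14-fold, against 195-fold for Cxcl10. The unnamed locus was lowered by IFNγ, to 0.517 of its untreated level in control cells. On the value + 1 scale its log2 change with IFNγ was −0.95 in control and −0.51 in DENR KO cells. Its interaction was not called (0.44, adjusted p = 0.63 from limma).

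**Figure D4:**
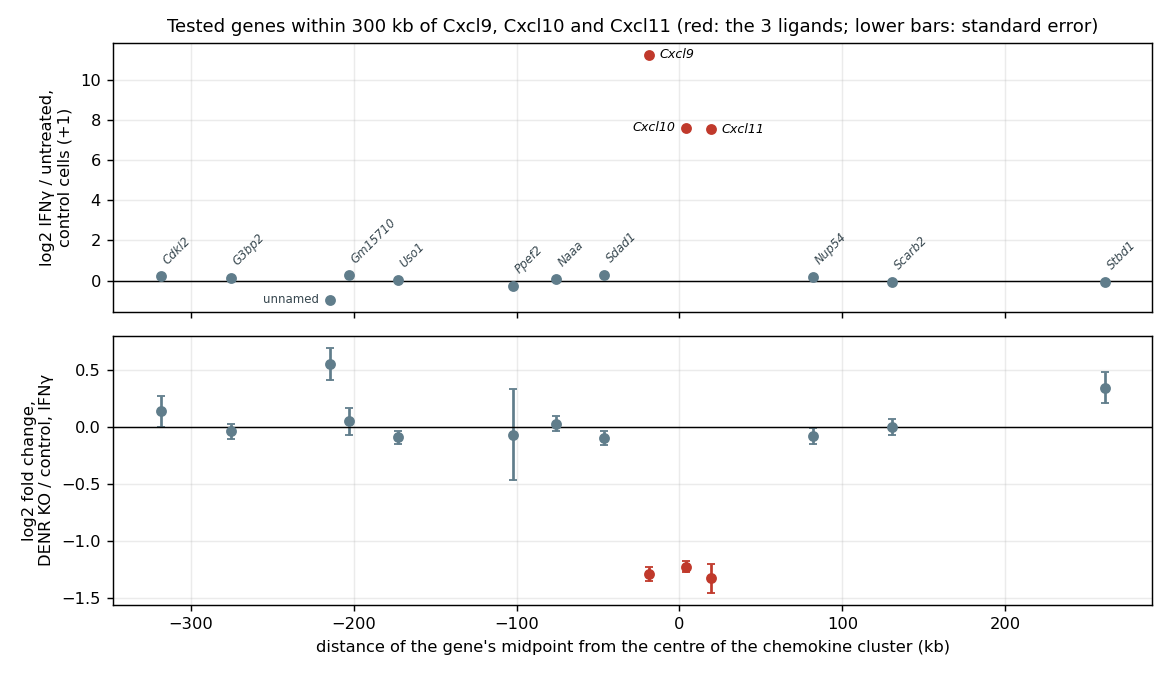
For the 3 ligands (red) and the 11 tested neighbors (grey), the upper panel gives the log2 ratio of IFNγ-treated to untreated control cells on the value + 1 scale and the lower panel the log2 change from control to DENR KO with IFNγ, with its standard error, against the distance from the center of the cluster in kb. Both the rise with IFNγ and the decrease in DENR KO cells are seen at the 3 ligands, and the neighbors lie between −0.10 and 0.55 in the lower panel.

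By the profile over the 8 samples, the genes most like Cxcl10 among 10261 named genes were Irgm2, Igtp, Gbp7, Nos2 and Gm12185. Their root mean square difference from Cxcl10, after centering each gene on its own mean, was 0.28 to 0.37 on the log2 scale. In control cells IFNγ raised them by 113-fold (Gbp7) to 237-fold (Igtp), against 195-fold for Cxcl10, and their log2 fold changes in DENR KO cells with IFNγ were −0.43, −0.69, −0.57, −0.77 and −0.75. Closest to Cxcl9 were Gbp5, Iigp1, Tgtp1, Gbp4 and Gm12250, at 1.01 to 1.25, and closest to Cxcl11 were Olfr56, C4b, Ubd, Irf8 and Zbp1, at 0.47 to 0.71. The DENR KO effect of these 15 genes with IFNγ ran from −1.14 (Ubd, a ubiquitin-like modifier) to −0.43 (Irgm2). The profile used to choose the genes included these samples, so the direction of the effect is not independent of the choice. Several are interferon-induced GTPases with close paralogs, whose reads may have been divided in ways that were not checked.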

How the data were processed

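RNA of control and DENR KO MC38 cells was extracted with TRIzol, and poly-T selected mRNA was sequenced by Illumina. The submitters' processing notes list HISAT2 (2.0.5), StringTie (1.3.3b), featureCounts (1.5.0-p3), DESeq2 (1.20.0) and the build mm9, but 95.2% of the gene coordinates in the tables equal GENCODE M21 on GRCm38, which was used here. The strand setting is not given in the sources used here. The authors deposited 1 table per treatment with a normalized signal per sample (reads divided by a size factor, from 0.976 to 1.02), gene lengths, and their own group means, fold changes and p-values, which were not used.

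In every sample 100% of values were whole multiples of 1 step within 0.001 reads. Groups were compared with limma (3.58.1, R 4.3.3; intensity trend, robust) on log2(value + 1), where a gene's mean reached 10, with Benjamini-Hochberg adjustment over all genes. This scale understates the change of low genes. DESeq2 (1.42.0) and edgeR (4.0.16) on the recovered reads were alternatives. Scripts were tested on simulated data. Joint size factors came from 16330 genes with reads in all 8 samples. Besides the members, Denr, genes within 300 kb, 5 genes most like each member (mean of at least 100) and genes of fixed lists were named. The members and lists were chosen with earlier results of these data known. Replicates differed by more than sampling noise (chi-square per degree of freedom 3.49 to 5.90), and none were merged for the tests. For the counting intervals and the folds of the members, the reads of both samples of a group were summed. The lists are given without 1 gene, which is not reported here.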

Additional observations from a re-analysis of the deposited data

Results flagged for a closer look

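Cxcl10 is the 1 member whose DENR KO effect was called as differing between treatments in the main test of the difference itself. Cxcl9 and Cxcl11 had single-digit untreated reads, so this does not set Cxcl10 apart from them. Their estimates were −2.19 and −2.50, and with a pseudocount of 8 they were called as well (adjusted p = 0.0041 and 0.016 from limma). For Cxcl10 the effect was −1.22 on the log2 scale with IFNγ and −0.04 without it, and the interaction was −1.18 (adjusted p = 1.8e-06 from limma). With groups of 2, no sample could be tested as standing apart from its group.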

How the results depend on the processing

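With IFNγ, the decrease of the 3 members kept its direction in all alternatives and its call in all but the fit of all 8 samples, where Cxcl9 (−1.29, adjusted p = 0.67) and Cxcl11 (−1.32, adjusted p = 0.47) were lost and 90 genes were called lower instead of 143. Leaving out 1 sample at a time, the effect on the log2 scale ranged from −1.37 to −1.21 for Cxcl9, −1.27 to −1.18 for Cxcl10 and −1.49 to −1.16 for Cxcl11, and the share kept from 38.4 to 42.9%, 41.0 to 43.7% and 34.7 to 43.7%. Genes called higher were 72, against 36 with DESeq2 and 70 to 126 with a sample left out, the highest without control replicate 1. Beyond a log2 fold change of 1, 31 were lower and 13 higher. Untreated, 12 genes were lower and 18 higher, 6 were lower with DESeq2, and 13 to 30 and 15 to 42 with a sample left out (30 and 34 without DENR KO replicate 1, 27 and 42 without DENR KO replicate 2). The untreated Cxcl10 effect turned to 0.0971 without DENR KO replicate 2 and ranged from −0.17. The interaction called 60 lower and 3 higher genes, 5 higher with DESeq2, and 35 to 81 and 1 to 12 with a sample left out. The lower count was 35 without replicate 2 of either genotype with IFNγ and 37 without untreated DENR KO replicate 1, and the higher count was 12 and 9 without untreated control replicates 1 and 2, 7 without control replicate 1 and 1 without DENR KO replicate 2 with IFNγ. The interaction of Cxcl9 was called with a pseudocount of 8 (−1.50), and that of Cxcl11 with it (−1.62) and without untreated control replicate 1. Leaving out samples, these 2 ranged from −3.36 to −1.03 and from −3.50 to −1.49, and that of Cxcl10 from −1.32 to −1.05. Same-numbered samples were not taken as pairs: control and knockout deviations correlated at 0.22 with IFNγ and 0.05 untreated, and across treatments at 0.25 in control and 0.02 in knockout samples. With the replicate block, 110 genes were higher with IFNγ, 28 lower and 38 higher untreated, 120 lower and 30 higher in the interaction, and Cxcl11 was called in the interaction (−2.50, adjusted p = 0.0026). The causes were not tested. Depth limits untreated Cxcl9 and Cxcl11, whose effects without IFNγ could not be tested.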
